A study of Gossypium hirsutum with 12 samples.

Results

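Transcripts read by 124 of the 24029 probe sets of the Affymetrix cotton array were at least 2-fold lower at 42 °C than at 32 °C in leaves of both cotton cultivars examined. A probe set was a member when the mean of log2(signal + 16) was lower by 1 or more at 42 °C than at 32 °C in Sicot 53 and in Sicala 45, and when every array at 42 °C lay below every array at 32 °C within each cultivar. Its mean signal over the 6 arrays at 32 °C had to be 100 or more. Probe sets of 5 identifier stems were left out, which removed 2 of the 126 that met these conditions (0.524% of all probe sets). The members were chosen by their measured heat change, so every 42 °C against 32 °C value given here is a description with no test, and the words fall and lower state the measured difference.

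The plants were upland cotton (Gossypium hirsutum), an allotetraploid grown for fibre, and both cultivars are named varieties with no transgene or mutation stated. The 4 groups were Sicot 53 at 42 °C, Sicot 53 at 32 °C, Sicala 45 at 42 °C and Sicala 45 at 32 °C, with 3 arrays each and 12 in all. All plants grew in field soil and were acclimated for 4 d in a cabinet set to 32 °C in the light and 25 °C in the dark. The 42 °C plants were well watered and had 67% relative humidity in the light, with nights of 25 °C and 40% humidity. The 32 °C plants stayed under the acclimation conditions, for which no humidity is given. Whole tissue of the third youngest fully expanded leaf was taken, at a stage labelled vegetative and described as first square, the first flower bud. The cabinet held 1 temperature at a time, with the hot plants entering after the control plants had left, so temperature and cabinet run cannot be told apart. Nothing in the labels says whether the 3 leaf samples of a group came from separate plants.

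Leaves respond to heat by activating heat shock transcription factors and chaperones, while transcripts of many growth and biosynthetic functions can decline. Both slower synthesis and faster decay can lower a transcript. In upland cotton most genes exist as near-identical copies from the A and the D subgenome, and a probe set may read both. A whole leaf also mixes mesophyll, epidermis, vascular tissue and trichomes, so fewer cells of a type and less RNA per cell cannot be told apart in these samples.

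The label of leaf tissue was set against its markers. RCA1, which encodes Rubisco activase, averaged a signal of 37108 at 42 °C and 35358 at 32 °C, among the highest on the arrays. GOX, glycolate oxidase of photorespiration, averaged 2265 and 1824 at 42 °C and 32 °C. For cotton fibre, a seed trichome and another cell type, 10 probe sets were picked by gene name, none of them at 0. Expansins EXPA11A and EXPA13D entered only because their names contain EXPA1. The 10 probe sets include several expansins and lipid transfer proteins, and whether they mark fibre alone was not tested. Their summed signal was 15828 to 29288 at 42 °C (median 23318) and 22948 to 27692 at 32 °C (median 24621). Most of it came from lipid transfer protein probe sets, which averaged 16249 and 3984 at 42 °C, against 18036.5 and 4535 at 32 °C. The sum therefore says little about the others. Among them, Fb2 changed on the log2 scale by -0.56 in Sicot 53 and -0.81 in Sicala 45, and E6 by 0.42 and 0.0001. None of these leaf and fibre probe sets was a member. Replicate arrays of a group correlated at r of 0.932 to 0.971 over all probe sets.

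Some measures of the arrays moved with temperature. The 3'/5' signal ratio of the ubiquitin control ubq11, which rises when RNA is degraded or copied incompletely, was 7.99, 41.5 and 13.4 in Sicot 53 at 42 °C, against 6.39, 5.16 and 4.73 at 32 °C. In Sicala 45 it was 6.39, 24.6 and 11.2 at 42 °C, against 6.14, 5.82 and 10.7 at 32 °C. Replicate 2 thus stood apart at 42 °C in both cultivars. The same ratio for actin was 6.02 to 18.6 at 42 °C and 7.98 to 13.5 at 32 °C. The poly-A spikes, bacterial transcripts added to the RNA, averaged 9.61 on the log2 scale at 42 °C (9.40 to 9.96) and 9.11 at 32 °C (8.80 to 9.54). The part of these measures in the falls was not tested. Without the 2 arrays of high ubq11 ratio, 79 of the 124 members were still at least 2-fold lower in both cultivars.

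**Figure D1:**
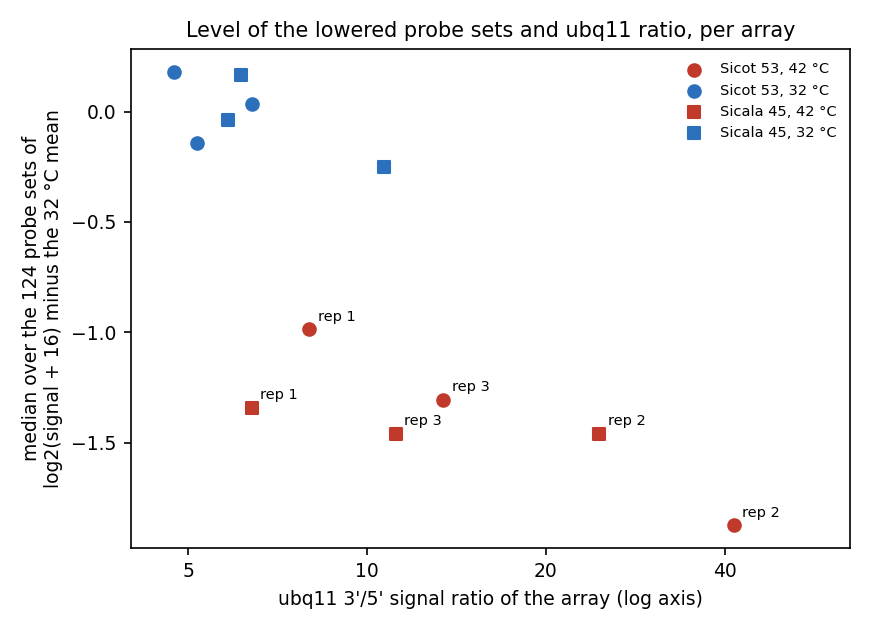
For each of the 12 arrays, the 3'/5' signal ratio of ubq11 (x axis, log scale) and the median over the 124 members of log2(signal + 16) minus the mean of the 32 °C arrays (y axis), with circles for Sicot 53 and squares for Sicala 45. The array of Sicot 53 at 42 °C with a ratio of 41.5 has the lowest member median, -1.87, and the Sicala 45 array with a ratio of 24.6 has -1.46, equal to that of another array of its group.

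The members' median falls lay close together in the 2 cultivars, where the rule set the same limit of -1 in both. In Sicot 53 the change on log2(signal + 16) had a median of -1.36 and ran from -3.48 to -1.005, and in Sicala 45 its median was -1.38, from -3.98 to -1.002. Over all probe sets the medians were -0.08 in Sicot 53 and 0.03 in Sicala 45. Averaged over the cultivars, 86 members fell between 2-fold and 3-fold, 20 between 3-fold and 4-fold, 15 between 4-fold and 8-fold, and 3 by 8-fold or more. The signal left at 42 °C, as a percentage of that at 32 °C, had a median of 37.3% and ranged from 7.19% to 48.7%.

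The balance of rises and falls depended on the scaling of the arrays. With the deposited scaling the mirrored rule found 226 probe sets, or 0.941% of all, that were at least 2-fold higher at 42 °C in both cultivars, against 0.524% for the falls. With each array scaled to its poly-A spikes there were 87 rises and 838 falls, and with median centring 266 rises and 90 falls, before the identifier stems were left out. A fall of 2-fold or more, with no other condition, was seen for 897 probe sets in Sicot 53 (3.73%) and 678 in Sicala 45 (2.82%), and for 292 in both (1.22%), while 329 were 2-fold higher in both (1.37%). Arrays that did not overlap in either cultivar were found for 736 probe sets lower at 42 °C (3.06%) and 726 higher (3.02%). Of the 12204 probe sets with a signal of 100 or more at 32 °C, 270 fell at least 2-fold in both cultivars (2.21%) and 126 met the whole rule (1.03%), and 144 of these missed the rule because their arrays overlapped between temperatures. The overlap lay in Sicot 53 alone for 34, in Sicala 45 alone for 49 and in both for 61. A further 22 fell by 2-fold in both cultivars at a signal under 100.

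**Figure D2:**
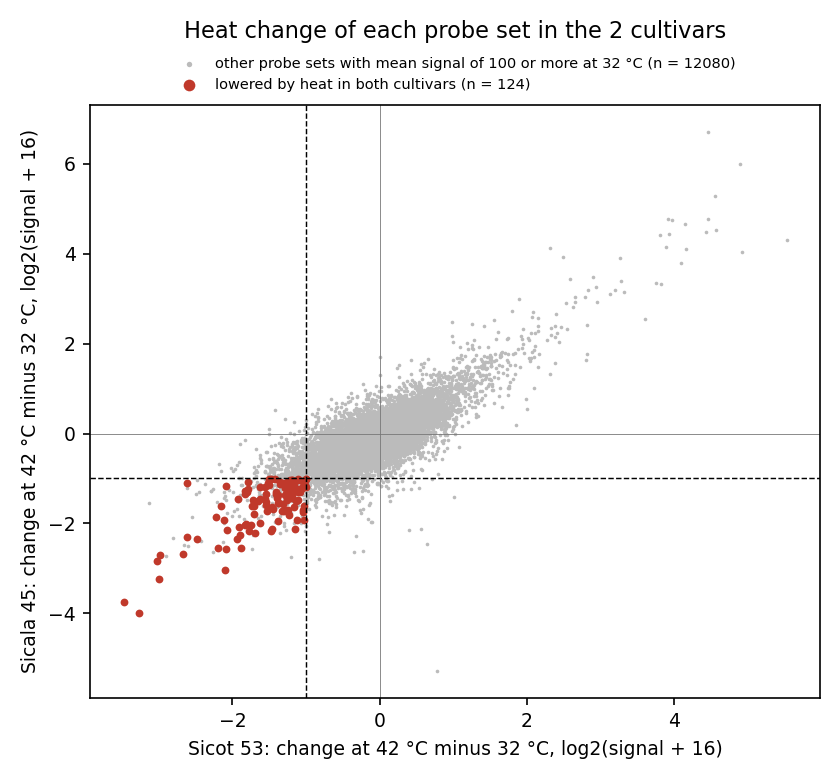
Heat change of each probe set in Sicot 53 and in Sicala 45, as the difference of group means of log2(signal + 16), 42 °C minus 32 °C (3 arrays per group). The 124 members lie at or below -1 on both axes, most of them near the corner, with a few reaching below -3.

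Mean signals of the members spanned a wide range: 25.9 to 5151 at 42 °C with a median of 248, against 101 to 11213 at 32 °C with a median of 828. At 42 °C 25 members were under 100 and 14 were at 1000 or more, while 52 were at 1000 or more at 32 °C. Together the members made up 0.305% of the summed signal of an array at 42 °C (0.223% to 0.426% over 6 arrays). At 32 °C they made up 0.890% (0.785% to 1.08%). A lower share at 42 °C follows from how they were chosen, and it is a share of signal, not of RNA amount. The distance between temperatures was often narrow. The lowest 32 °C array divided by the highest 42 °C array, taking the smaller of the cultivars' ratios, had a median of 1.39. It was 2 or more for 8 members and under 1.1 for 19.

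The size of the fall differed between arrays of the same group. In Sicot 53 at 42 °C the members' median change from the 32 °C mean was -0.98, -1.87 and -1.31 on replicates 1, 2 and 3, against 0.04, -0.14 and 0.18 at 32 °C. In Sicala 45 it was -1.34, -1.46 and -1.46 at 42 °C, against 0.17, -0.04 and -0.25 at 32 °C. Replicate 2 of Sicot 53 at 42 °C was the lowest of its 3 arrays for 90 members (72.6%), where the same held for 40.9% of all probe sets of signal 100 or more. It is the array with the ubq11 ratio of 41.5. In Sicala 45 at 42 °C replicates 1, 2 and 3 were the lowest for 39, 43 and 42 members. Replicate 2, with the ubq11 ratio of 24.6, was thus lowest for 34.7% of members, against 26.3% of all probe sets of signal 100 or more.

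**Figure D3:**
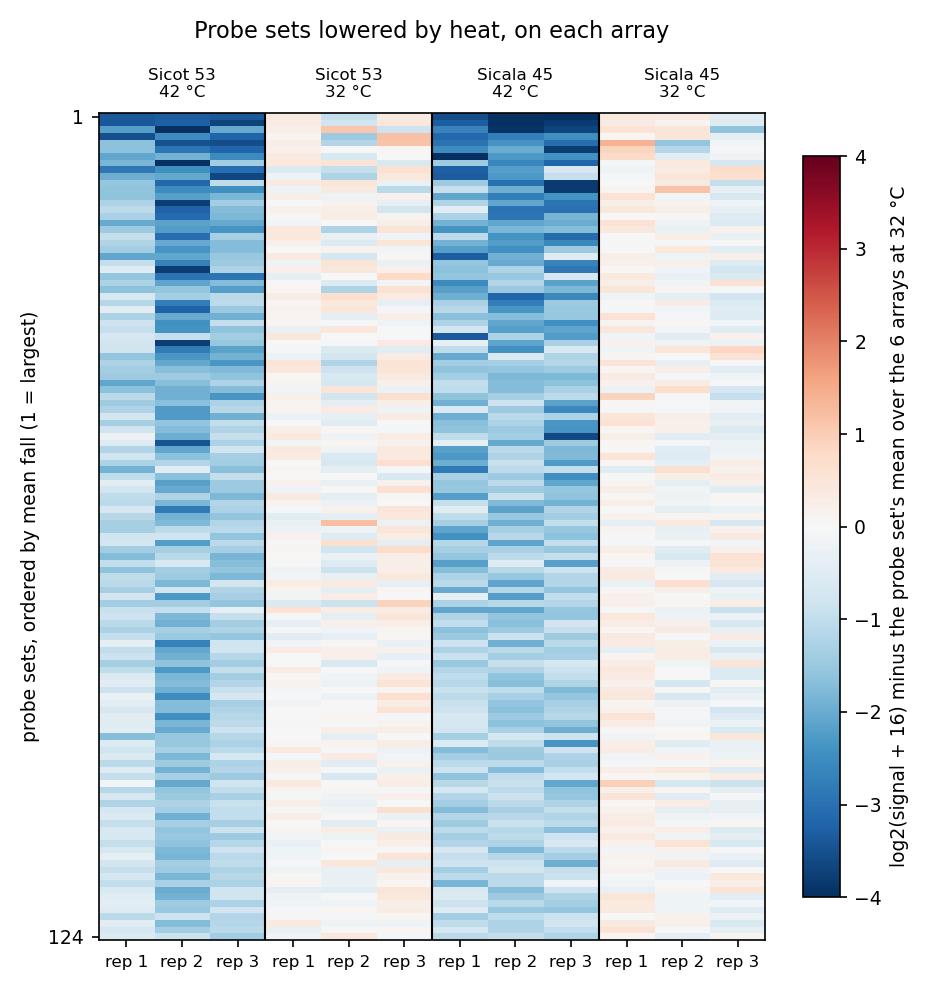
The 124 members (rows, ordered by mean fall) on the 12 arrays (columns), coloured by log2(signal + 16) minus the member's mean over the 6 arrays at 32 °C. Within each cultivar the 42 °C arrays are below the 32 °C arrays for every member, as the rule requires, and replicate 2 of Sicot 53 at 42 °C has the lowest median, -1.87.

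A pair of probe sets without a gene symbol had the deepest falls. Gra.70.1.S1_s_at read 187, 194 and 188 in Sicot 53 at 42 °C, against 2686, 1068 and 2626 at 32 °C. In Sicala 45 it read 162, 118 and 94.7 at 42 °C, against 2645, 2616 and 1478 at 32 °C. These are falls of 9.62-fold in Sicot 53 and 15.8-fold in Sicala 45, and the 42 °C arrays lay far under all 32 °C arrays. The identifier prefix Gra marks a sequence from Gossypium raimondii, a diploid relative that represents the D subgenome.

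Ghi.10424.1.S1_s_at, from upland cotton itself, read 174, 189.8 and 136 in Sicot 53 at 42 °C, against 2503, 1167 and 2742 at 32 °C. In Sicala 45 it read 187, 93.4 and 125 at 42 °C, against 2485, 2207 and 1374 at 32 °C. The falls were 11.1-fold and 13.5-fold in Sicot 53 and Sicala 45. Like Gra.70.1.S1_s_at, it had its lowest 32 °C arrays in replicate 2 of Sicot 53 and replicate 3 of Sicala 45, while the order of the 42 °C arrays differed between them. The deviations of the pair from their group means correlated at r of 0.901 over the 12 arrays, which both share. Whether both read copies of 1 gene was not tested.

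The other members with the deepest falls varied more within a group. Ghi.6075.1.S1_s_at read 478, 106 and 556 in Sicot 53 at 42 °C, against 2732, 4937 and 1276 at 32 °C. In Sicala 45 it read 339.6, 135 and 165 at 42 °C, against 3349, 3207 and 740.4 at 32 °C. It fell 7.99-fold in Sicot 53 and 9.45-fold in Sicala 45. Its size leaned on single arrays: the log2 change was -2.29 in Sicot 53 without replicate 2 at 42 °C, and -3.95 in Sicala 45 without replicate 3 at 32 °C, against -3.24 with it.

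GhiAffx.46689.1.S1_at read 88.9, 193 and 114 in Sicot 53 at 42 °C, against 1286, 419.6 and 2658 at 32 °C. In Sicala 45 it read 119.7, 166 and 205 at 42 °C, against 1256, 1661 and 903 at 32 °C. The falls were 8.10-fold in Sicot 53 and 7.11-fold in Sicala 45, and the 32 °C arrays of Sicot 53 spread over a wider range than those of Sicala 45. In Sicot 53 the log2 change was -3.72 without replicate 2 at 32 °C and -2.41 without replicate 3.

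GhiAffx.6053.1.S1_s_at read 215, 48.7 and 46.0 in Sicot 53 at 42 °C, against 877, 307 and 1572 at 32 °C. In Sicala 45 it read 76.8, 123 and 71.5 at 42 °C, against 1884, 229.7 and 647 at 32 °C. Its 7.90-fold and 6.49-fold falls in Sicot 53 and Sicala 45 thus stand on 32 °C arrays that differed several-fold among themselves. In Sicala 45 the log2 change was -1.95 without replicate 1 at 32 °C and -3.43 without replicate 2.

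GhiAffx.6289.1.A1_s_at fell 6.37-fold in Sicot 53 and 6.39-fold in Sicala 45. It read 149, 53.3 and 41.6 in Sicot 53 at 42 °C, against 579, 501 and 536 at 32 °C. In Sicala 45 it read 74.0, 115 and 21.5 at 42 °C, against 955, 221 and 487 at 32 °C. The 32 °C arrays of Sicot 53 were close together, and those of Sicala 45 were not.

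**Figure D4:**
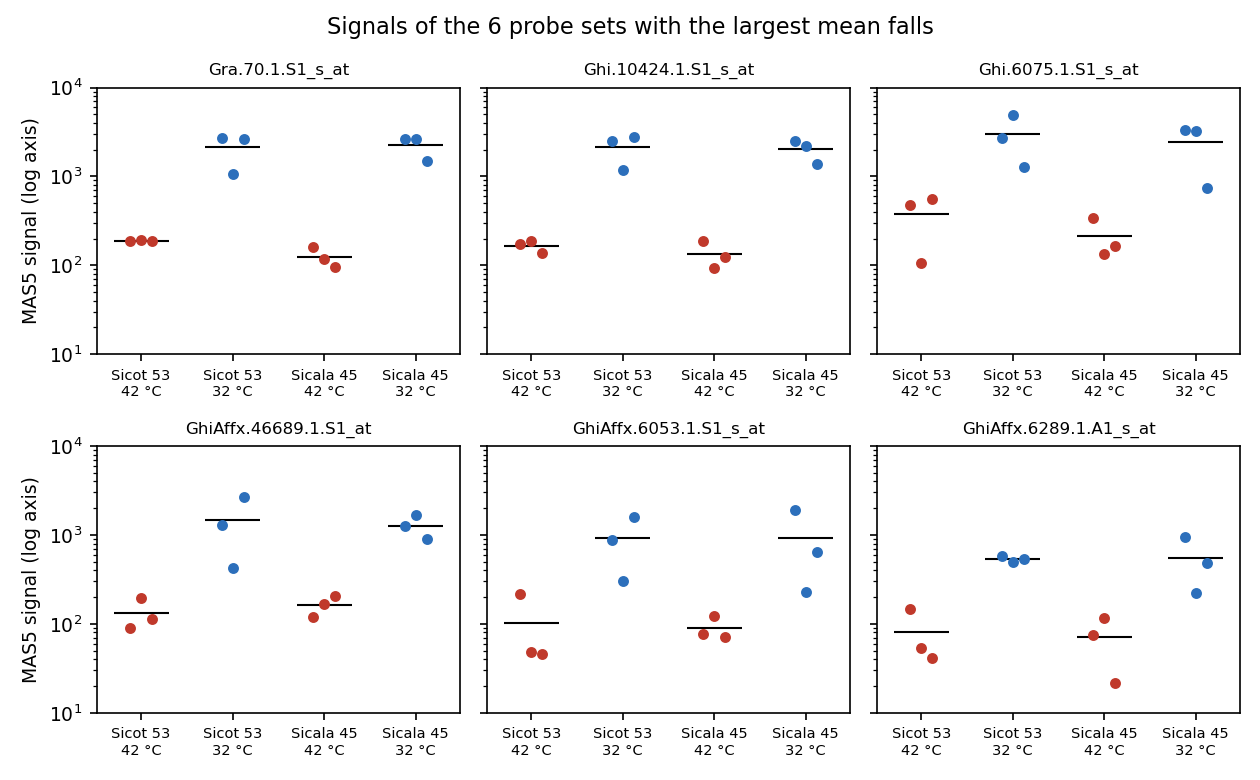
Signals of the 6 members with the deepest mean fall, 1 point per array on a log axis, for Sicot 53 and Sicala 45 at 42 °C and 32 °C. In each panel all 42 °C points lie below all 32 °C points of the same cultivar. Gra.70.1.S1_s_at and Ghi.10424.1.S1_s_at show the widest gaps.

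Few members could be tied to a gene. The platform annotation gives exactly 1 gene symbol for 6 members, several symbols for 1 and none for the other 117. The 6 stand for 5 genes, each with a LOC symbol and no gene name, so no role is stated for them. On the whole array 324 probe sets have 1 gene symbol and a gene name. None of the 10 gene groups drawn up from words in gene names could therefore hold a member. The cell wall group had 50 named probe sets, photosynthesis 2 and heat shock 0, so heat shock genes could not be looked at by name.

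LOC107942981 had the deepest fall among these genes. GhiAffx.26092.1.S1_s_at read 2298, 2116 and 695 in Sicot 53 at 42 °C, against 7643, 3743 and 11781 at 32 °C. In Sicala 45 it read 860.1, 1779.9 and 4678 at 42 °C, against 8468, 12393 and 13747 at 32 °C. It fell 4.59-fold in Sicot 53 and 5.81-fold in Sicala 45. Replicate 3 of Sicala 45 was high among the 42 °C arrays, and without it the log2 change there was -3.17 in place of -2.54.

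LOC107952815 was read by 2 members. Ghi.10818.1.S1_s_at had 1076, 231 and 710.3 in Sicot 53 at 42 °C, against 1683, 1951 and 2419.8 at 32 °C. In Sicala 45 it had 1253, 382 and 743 at 42 °C, against 1762, 1369 and 1455 at 32 °C. Replicate 2 was the lowest 42 °C array in both cultivars, and these are the 2 arrays of high ubq11 ratio. Without it the log2 change was -1.18 in Sicot 53, against -1.79 with it, and -0.65 in Sicala 45, against -1.08.

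The other probe set of LOC107952815, Ghi.10818.3.S1_s_at, fell 2.01-fold in Sicot 53 and 2.27-fold in Sicala 45. It had 585, 216 and 512 in Sicot 53 at 42 °C, against 683, 651 and 1264 at 32 °C. In Sicala 45 it had 576, 263 and 500.01 at 42 °C, against 734, 965 and 1338 at 32 °C. Replicate 2 was again the lowest 42 °C array in both cultivars, and without it the log2 change was -0.58 in Sicot 53 and -0.85 in Sicala 45. The falls of this gene therefore did not reach 2-fold in both cultivars once replicate 2 was left out.

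LOC107891140, read by Ghi.8189.2.S1_s_at, had nearly equal 42 °C arrays. They were 837, 838 and 745 in Sicot 53 at 42 °C, against 1507, 1236 and 4112 at 32 °C. In Sicala 45 they were 925, 1038 and 976 at 42 °C, against 2569.6, 2293 and 2747 at 32 °C. The falls were 2.42-fold in Sicot 53 and 2.56-fold in Sicala 45, but in Sicot 53 the log2 change was -0.75 without replicate 3 at 32 °C.

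LOC107927831, read by GhiAffx.34326.1.S1_s_at, fell 2.58-fold in Sicot 53 and 2.90-fold in Sicala 45. Its signals were 1197, 1052 and 691 in Sicot 53 at 42 °C, against 3141, 1917 and 2560.3 at 32 °C. In Sicala 45 they were 523, 1327 and 796 at 42 °C, against 2531, 2133 and 2612 at 32 °C. LOC107951589, read by GhiAffx.1589.1.S1_s_at, had the highest 32 °C signal of all members.

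GhiAffx.1589.1.S1_s_at read 8268, 2732 and 6062 in Sicot 53 at 42 °C, against 10876, 13336 and 13080.0 at 32 °C. In Sicala 45 it read 6525, 4469.9 and 2851 at 42 °C, against 11481, 11221 and 7286 at 32 °C. The falls were 2.40-fold and 2.24-fold in Sicot 53 and Sicala 45. Leaving out the lowest 42 °C array brought the log2 change to -0.80 in Sicot 53 (replicate 2) and -0.86 in Sicala 45 (replicate 3).

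The 4 members of highest signal at 32 °C without a gene symbol had mean falls of 2.19-fold to 4.22-fold. Ghi.1069.1.S1_x_at read 3236, 1064 and 2978 in Sicot 53 at 42 °C, against 6259.6, 5564 and 5226 at 32 °C. In Sicala 45 it read 2428, 1342 and 1028 at 42 °C, against 6260.3, 5989.5 and 5346 at 32 °C. It fell 2.59-fold in Sicot 53 and 3.88-fold in Sicala 45, with 32 °C arrays that lay close together in both. Without replicate 2 at 42 °C the log2 change in Sicot 53 was -0.86, against -1.38 with it.

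GhiAffx.7949.1.S1_s_at read 2477, 531 and 1528 in Sicot 53 at 42 °C, against 5814, 6032 and 3093 at 32 °C. In Sicala 45 it read 3757, 655 and 641 at 42 °C, against 7004, 6111 and 4153 at 32 °C. It fell 3.73-fold and 4.76-fold in Sicot 53 and Sicala 45, with replicate 1 of Sicala 45 at 42 °C close to the lowest 32 °C array. The log2 change was -3.09 in Sicala 45 without that array, against -2.25 with it, and -1.29 in Sicot 53 without replicate 2 at 42 °C, against -1.90.

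Ghi.2961.1.A1_s_at fell 3.36-fold in Sicot 53 and 4.12-fold in Sicala 45. It read 2412, 705 and 1727 in Sicot 53 at 42 °C, against 4223, 6897 and 3919 at 32 °C. In Sicala 45 it read 1620.5, 1151 and 722 at 42 °C, against 5476, 5395 and 3299 at 32 °C. Replicate 2 of Sicot 53 and replicate 3 of Sicala 45 were the lowest at 42 °C.

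Ghi.8067.1.S1_s_at fell less, by 2.30-fold in Sicot 53 and 2.08-fold in Sicala 45. It read 2485, 1586 and 2174 in Sicot 53 at 42 °C, against 3984, 4760.2 and 5585 at 32 °C. In Sicala 45 it read 2117, 2061 and 3065 at 42 °C, against 5433, 7114 and 3135 at 32 °C. Its Sicala 45 arrays nearly met between the temperatures, in replicate 3 of each.

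The cultivars' falls were set side by side. The change in Sicot 53 minus that in Sicala 45 had a median of 0.03 and ran from -1.52 to 0.99, and 103 members (83.1%) had changes within 0.5 of each other on the log2 scale, where 83.5% of all probe sets of signal 100 or more did. The fall was larger in Sicot 53 for 56 members and in Sicala 45 for 68. Across the 124 members the changes correlated at a Pearson r of 0.752 and a Spearman rho of 0.529, a description of points that share arrays and were cut off at -1 by the rule. The difference of the cultivars' heat changes uses the same group means as the rule and was not tested.

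Ghi.7041.1.S1_at had the largest excess fall in Sicot 53, at low signals. It read 30.8, 1.42 and 2.03 in Sicot 53 at 42 °C, against 88.9, 119 and 223 at 32 °C. In Sicala 45 it read 31.0, 31.6 and 70.3 at 42 °C, against 165, 98.5 and 75.9 at 32 °C. Its log2 change in Sicot 53 was -2.61 with a pseudocount of 16, and -4.45 and -1.43 with pseudocounts of 1 and 64, so its size rests on that choice.

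Ghi.7998.1.S1_s_at came next on that side, falling 4.24-fold in Sicot 53 and 2.26-fold in Sicala 45. It read 435, 39.7 and 248 in Sicot 53 at 42 °C, against 730.0, 695 and 939.6 at 32 °C. In Sicala 45 it read 582, 159.7 and 291 at 42 °C, against 835, 668 and 622 at 32 °C. Replicate 2 was the lowest 42 °C array in both cultivars, and without it the log2 change was -1.21 in Sicot 53 and -0.75 in Sicala 45.

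On the other side, GraAffx.27297.1.S1_x_at fell 4.29-fold in Sicot 53 and 8.20-fold in Sicala 45. It read 315, 359 and 219 in Sicot 53 at 42 °C, against 1798, 899.8 and 1369 at 32 °C. In Sicala 45 it read 59.5, 266 and 243 at 42 °C, against 2329.5, 1019.8 and 1235 at 32 °C. Without the lowest array, replicate 1 of Sicala 45 at 42 °C, the log2 change in Sicala 45 was -2.42, against -3.04 with it.

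GhiAffx.61565.1.S1_s_at had the largest excess fall in Sicala 45 with a pseudocount of 16. It read 110.0, 89.6 and 59.97 in Sicot 53 at 42 °C, against 255, 184 and 185 at 32 °C. In Sicala 45 it read 3.33, 66.0 and 26.4 at 42 °C, against 159.6, 128 and 207 at 32 °C. Its signals at 42 °C were low and spread widely in Sicala 45. Its log2 changes were -0.86 in Sicot 53 and -1.29 in Sicala 45 with a pseudocount of 64, a smaller excess than that of GraAffx.27297.1.S1_x_at, at -1.94 and -2.69. Without replicate 1 at 42 °C the change in Sicala 45 was -1.59, against -2.13 with it.

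The difference between cultivars averaged over both temperatures does not enter the rule, and it was tested. With limma on all 12 arrays, 32 of 16821 probe sets (0.19%) differed between Sicot 53 and Sicala 45 at an adjusted p under 0.05, 15 of them higher and 17 lower in Sicot 53. All 124 members were among those tested and 0 were called. At an unadjusted p under 0.05 there were 4 members (3.23%), against 474 of all tested probe sets (2.82%). The median SE was 0.247 for members and 0.227 for all tested probe sets.

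The members' averaged cultivar differences were small. Their median was 0.05 on the log2 scale, Sicot 53 minus Sicala 45, and the median size without sign was 0.158, against 0.124 over all probe sets tested. The 95% interval lay within a 2-fold difference in either direction for 100 of 124 members. For the other 24 a 2-fold difference between the cultivars lay within the interval, so a missed threshold does not show equal levels.

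Ghi.6748.1.A1_at came nearest to a call. It read 1681, 1004 and 1244 in Sicot 53 at 42 °C and 3227, 4217 and 3331 at 32 °C. In Sicala 45 it read 672, 271 and 428 at 42 °C and 2338, 2018 and 1524 at 32 °C. Every Sicot 53 array was above every Sicala 45 array of the same temperature. The averaged difference was 1.21 ± 0.22 on the log2 scale (SE, 6 arrays per cultivar), with a limma adjusted p of 0.0538 and an interval of 0.74 to 1.69. Over 23 alternative settings the adjusted p ranged from 0.00449 to 0.369 and passed in 4.

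GraAffx.30445.1.A1_s_at was next, with an averaged difference of 0.99 ± 0.20 (SE) and a limma adjusted p of 0.132. It read 94.7, 89.5 and 144 in Sicot 53 at 42 °C and 289, 237 and 240.3 at 32 °C. In Sicala 45 it read 32.0, 32.5 and 54.5 at 42 °C and 177, 159 and 93.0 at 32 °C. Every Sicot 53 array was again the higher at each temperature, and the adjusted p of the alternatives ran from 0.0233 to 0.444, passing in 3 of 23.

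**Figure D5:**
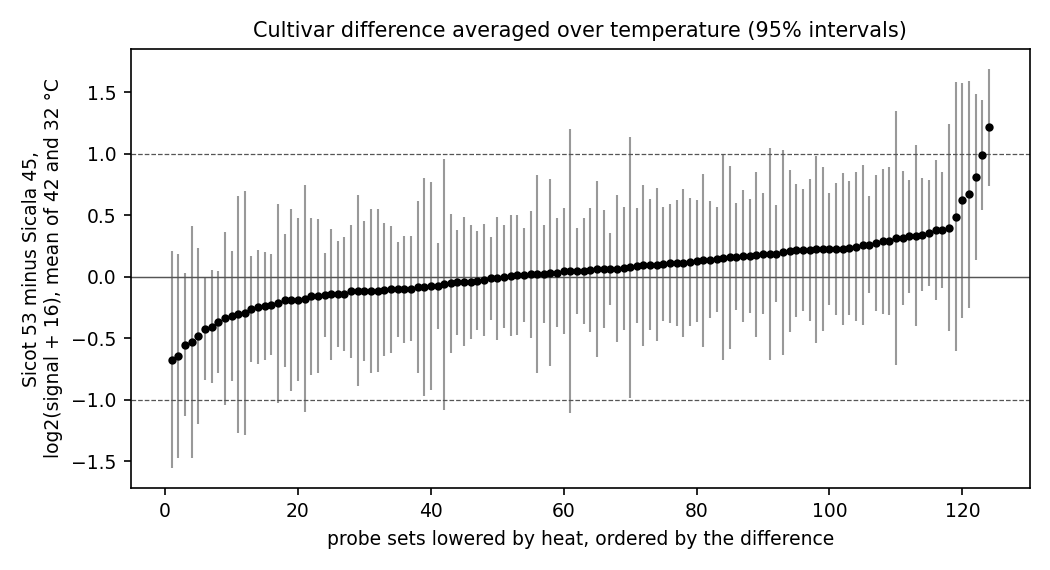
Averaged difference between the cultivars (Sicot 53 minus Sicala 45, log2 scale, mean over both temperatures) of the 124 members, with its 95% interval from limma. Most members lie near 0, and Ghi.6748.1.A1_at and GraAffx.30445.1.A1_s_at lie farthest above it at 1.21 and 0.99.

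The edge of the set is not sharp. Gra.2701.4.S1_s_at, with changes of -1.11 in Sicot 53 and -1.002 in Sicala 45, and Ghi.3363.2.S1_s_at, with -1.005 in Sicot 53 and -1.01 in Sicala 45, were just inside the fold threshold. Just outside it were Ghi.8320.1.S1_s_at, with -1.27 in Sicot 53 and -0.9999 in Sicala 45, and GhiAffx.22444.1.S1_at, with -0.997 in Sicot 53 and -1.27 in Sicala 45. By signal, Gra.2394.1.S1_s_at at 101 and GraAffx.27636.1.S1_s_at at 127 were the lowest members, and Ghi.10491.1.S1_at at 97.8 and GhiAffx.19945.1.S1_at at 95.1 were the nearest left out.

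A core of 52 members met the whole rule whichever of the 12 arrays was left out. Leaving out an array cannot make separated arrays overlap, so only the fold and signal conditions were tried again, and deep falls meet the fold condition more readily. Of the 52, 48 met the rule under all 18 alternatives of array, pseudocount and scaling. Their mean log2 change had a median of -1.85 (-3.63 to -1.25), against -1.41 for all members. The 48 include all 6 members with the deepest falls, which lie farthest past the fold threshold. Of the annotated genes, they include the probe sets of LOC107942981 and LOC107927831.

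The members' identifiers were set against those of the whole array. The suffix _s_at, which marks probes shared by several transcripts, was carried by 70 members (56.5%), against 38.7% of all probe sets and 44.1% of those with a signal of 100 or more at 32 °C. The letter S in the identifier was found in 94 members (75.8%), against 55.5% of all and 71.4% of the brighter ones. Upland cotton sequences (prefix Ghi or GhiAffx) made up 103 members (83.1%), against 69.9% of all and 86.4% of the brighter ones. A probe set with the suffix _s_at cannot say which of its transcripts fell.

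Other probe sets with a member's identifier stem moved in both directions, many of them at low signal. With the large stem GhiAffx.1589 set aside, 37 probe sets outside the rule shared an identifier stem with a member. Of these, 19 were lower at 42 °C in both cultivars, 4 were higher in both and 14 differed in direction. All of those 14, 3 of the 4 and 11 of the 19 had a signal under 100 at 32 °C. Most of the 14 have the same numbers as a member and differ in the orientation letter A or S, as Ghi.6720.1.A1_at from Ghi.6720.1.S1_at. Whether a probe set of the other letter reads the member's transcript was not tested. In the stem GhiAffx.1589, which spans at least 5 gene symbols, 23 of 64 were lower in both, 17 higher in both and 24 differed. Among the 37, 9 had a signal of 100 or more at 32 °C. Of these 9, 8 were lower at 42 °C in both cultivars, where 45.1% of all probe sets of that signal were, and 0 reached 2-fold in both. Their median log2 change was -0.49 in Sicot 53 and -0.78 in Sicala 45. Ghi.8189.1.S1_s_at, which shares a stem with the probe set of LOC107891140, came close with -0.99 in Sicot 53 and -1.22 in Sicala 45. Ghi.2294.3.A1_s_at was the exception, higher at 42 °C by 0.72 and 0.33 in Sicot 53 and Sicala 45.

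Some members varied together within groups. Over all 7626 pairs of members, the deviations from group means on the 12 arrays correlated with a median r of 0.276, and 93 pairs had an r of 0.9 or more. Ghi.7998.1.S1_s_at went with GarAffx.9898.1.S1_s_at at 0.993 and with LOC107952815 (Ghi.10818.1.S1_s_at) at 0.982, and Ghi.1623.1.S1_at with Ghi.1069.1.S1_x_at at 0.983. These pairs were picked for their values, and all share the same arrays. For Ghi.7998.1.S1_s_at and LOC107952815, replicate 2 was the lowest 42 °C array in both cultivars.

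Of the 324 probe sets with 1 gene symbol and a gene name, 8 fell at least 2-fold in both cultivars, where 292 of all 24029 did (1.22%). Outside the left-out identifier stems there were 6. They missed the rule through array overlap or low signal, and they are named after their values were seen. DFR, dihydroflavonol reductase of anthocyanin and proanthocyanidin synthesis, read 3193, 199 and 560 in Sicot 53 at 42 °C, against 7574, 2535 and 7117 at 32 °C. In Sicala 45 it read 879, 3402 and 132 at 42 °C, against 7128, 1523 and 5220.0 at 32 °C. Its mean log2 change was -2.81 in Sicot 53 and -2.33 in Sicala 45, but the temperatures overlapped in both cultivars. CHS6, a chalcone synthase at the entry of flavonoid synthesis, changed by -1.30 and -1.13 in Sicot 53 and Sicala 45, also with overlap in both.

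The beta-tubulin probe set of BTub1 and BTub2, subunits of microtubules, changed by -1.73 in Sicot 53 and -2.57 in Sicala 45 with overlap in both. FLA13, a fasciclin-like arabinogalactan protein of the cell surface, changed by -1.05 and -1.38 in Sicot 53 and Sicala 45. Its 32 °C signal was 48.1, and its arrays overlapped in Sicot 53. A bHLH gene, bHLH110D, changed by -1.16 in Sicot 53 and -1.99 in Sicala 45 with overlap in both, and PAP1 by -1.30 and -1.19 with overlap in Sicala 45 alone. None of these 6 meets the conditions that the members meet, and their values are not part of the counts above.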

How the data were processed

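Total RNA from 12 leaf samples was hybridised to 1-colour Affymetrix cotton arrays. The deposited values are signal intensities on a linear scale, which the authors made with MAS5, per the submitters' processing notes. They form 1 table of 24132 probe sets, of which 103 control probe sets were left out. The trimmed mean between the 2nd and 98th percentiles is about 500 on every array. No detection calls were used here, and the number of arrays limits the precision. MAS5 signals of different probe sets are not comparable as amounts.

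The members, gene lists and marker lists were chosen with earlier results of these data known. Values were taken as log2(signal + 16), and a fold is on that scale. The averaged cultivar difference came from limma (version 3.58.1, run under R 4.3.3; lmFit, then eBayes with an intensity trend, two-sided, Benjamini-Hochberg) on the 4 groups, without the dimmest 30% of probe sets. Data with 200 true cultivar differences were simulated, with noise drawn independently for each probe set. The fit recovered 43.5% of them at 2-fold, with 4 false calls, and 86% at 4-fold, with 10. Deviations shared by the probe sets of an array were not simulated, so the shares for the real arrays may differ. Many true 2-fold differences could thus be missed. Other steps used Python 3.11.15 and matplotlib 3.10.9. Gene symbols came from the platform annotation, in which 697 probe sets have 1 symbol, 46 several and the rest none. All 697 matched a RefSeq gene table of assembly Gossypium_hirsutum_v2.1, used for names only. No sequence or coordinate was used here.

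Members were named by rule: all with 1 gene symbol; of the others, the 6 with the deepest mean fall, the 4 with the highest signal at 32 °C, the 2 of lowest p for the cultivar difference, the 2 with the largest difference between the cultivars' falls in each direction, and those nearest the thresholds. Alternatives were another pseudocount, scaling, filter or threshold, each array left out, leaving out both arrays whose ubq11 ratio exceeded 20, array weights and a replicate block. P-values measure only the spread between these samples, which may be technical.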

Additional observations from a re-analysis of the deposited data

How the results depend on the processing

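All 124 members stayed lower at 42 °C in both cultivars under the 3 other scalings. Median centring and spike scaling shift all probe sets of an array alike. With median centring the median change of all probe sets was 0.07 in Sicot 53 and 0.04 in Sicala 45, and spike scaling lowered it. Members chosen at -1 or lower could not change direction under such shifts. Leaving out arrays or changing the pseudocount could give no other direction either, since the rule separates the arrays. The number meeting the rule depended on several choices: it was 82 with a pseudocount of 64, 834 with scaling to the poly-A spikes, 374 with a fold threshold of 1.5, 28 with a threshold of 3 and 268 with no condition on overlap. Leaving out each array in turn gave 105 to 203 probe sets, with 199 without replicate 3 of Sicala 45 at 32 °C and 203 without replicate 1 of Sicala 45 at 42 °C. A group of 2 arrays separates more easily than a group of 3. Scaling to the spikes moved the median heat change of all probe sets to -0.60 in Sicot 53 and -0.45 in Sicala 45, and the members' medians to -1.88 and -1.86. This scaling shifts all probe sets of an array alike, so the members' medians relative to all, -1.28 in Sicot 53 and -1.41 in Sicala 45, cannot change. With each array left out, the members' median ran from -1.61 to -1.16 in Sicot 53 and from -1.49 to -1.35 in Sicala 45.

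The cultivar test called 61 probe sets with array weights, against 32, and 24 to 37 with each array left out. Members called, 0 in the reported fit, were 1 with a pseudocount of 64, 2 with median centring, 1 with quantile normalization, 2 with array weights and 0 to 1 with each array left out (1 without replicate 1 of Sicala 45 at 42 °C). Those calls were of Ghi.6748.1.A1_at and GraAffx.30445.1.A1_s_at only. Deviations of same-numbered arrays of the cultivars correlated at r of 0.41, 0.39 and -0.16 for replicates 1, 2 and 3 at 42 °C. At 32 °C the values were -0.12, 0.45 and 0.36. Differently numbered arrays had r of -0.61 to 0.42, with all but 0.42 and 0.37 at 0.14 or lower. Whether the numbers pair the samples was not tested. With a replicate block the fit called 28 probe sets and 0 members. Beyond that, the causes of these changes were not tested. With 3 arrays a group and no detection calls, signals under 100 at 42 °C, as in 25 members, fix the size of a fall poorly.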
